A study of Mus musculus with 2 samples.

Results

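The 10 genes Tff1, Tff2, Tff3, Muc1, Muc13, Clca3b, Agr2, Ctse, Lgals4 and Ceacam1 were read from a table of 55337 mouse gene symbols as a set of mucous and classical subtype genes. They were chosen by gene family and by their values in these same libraries, in which Clca3b and Tff3 had been seen high and Ctse low, so every difference of theirs is given as a description and no test is attached to it. The values come from KPC2, a mouse pancreatic cancer cell line. One wild type library came from KPC2 cells that received no drug, and 1 gemcitabine-resistant library from KPC2 cells treated over a long time with gemcitabine, a deoxycytidine analogue, at 260 ng/mL. Cells of both kinds grew in the same serum-supplemented medium, and the resistant ones had the drug in it as well, so the presence of drug and an inherited difference between the lines cannot be told apart. With 1 library per group there is no spread between replicates to hold a difference against. The labels do not say whether the resistant line is a single clone.

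Pancreatic adenocarcinomas are commonly sorted into a classical and a basal-like expression subtype, and the classical one is marked by genes of gastric and intestinal epithelium, among them trefoil factors, AGR2, CTSE and LGALS4. In such epithelia, mucous cells release gel-forming mucins together with small disulfide-knotted trefoil peptides, while membrane mucins and adhesion molecules cover the apical surface. The name of the set is therefore broader than secretion: the products of Muc1, Muc13 and Ceacam1 are membrane glycoproteins, that of Agr2 works in the endoplasmic reticulum, and that of Ctse is an intracellular protease.

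Levels are in FPKM, fragments scaled to transcript length and library size, as the deposited values were read. The 12193 genes whose higher value reached 1 FPKM are called measured. Differences are given on the scale log2((resistant FPKM + 1)/(wild type FPKM + 1)), called the log2 ratio, and a gene is called at least 2-fold higher or lower when this ratio reaches 1 in size. A pair written as 1 value against another gives the resistant library first. Low values fell on whole-fragment steps: for 1 kb of countable transcript, 1 fragment equalled 0.0418 FPKM in wild type and 0.0429 FPKM in resistant cells. The 95% intervals below come from these steps (exact Poisson for a level, exact binomial for a ratio) and cover counting error only, not differences between cultures. They are approximate for the 7 members with more than 1 annotated transcript. Summed over all rows, the values came to 998508 FPKM in wild type and 1.19728e+06 FPKM in resistant cells. The intervals do not cover this difference in scale between the libraries.

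Of the 10 members, 8 were measured. In the resistant library, 5 members were at least 2-fold higher (Tff2, Tff3, Clca3b, Lgals4 and Ceacam1), beside 7.90% of all measured genes. A single member, Ctse, was at least 2-fold lower, beside 8.37% of all measured genes. Tff1 and Muc1 lay within 2-fold, and Muc13 and Agr2 were under 1 FPKM in both libraries. As the members were chosen on this contrast, nothing is read from these shares. The same 7.90% and 8.37% are the background of each list count and each count of neighbouring genes below. Taken without the 2-fold line, 8 members had a higher FPKM in the resistant library, 1 a lower one, and Agr2 was listed at 0 in both. The median log2 ratio over all measured genes was 0.02, and nothing is read from this split either. In bulk RNA, fewer cells that make a transcript and less of it per cell cannot be told apart.

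**Figure D1:**
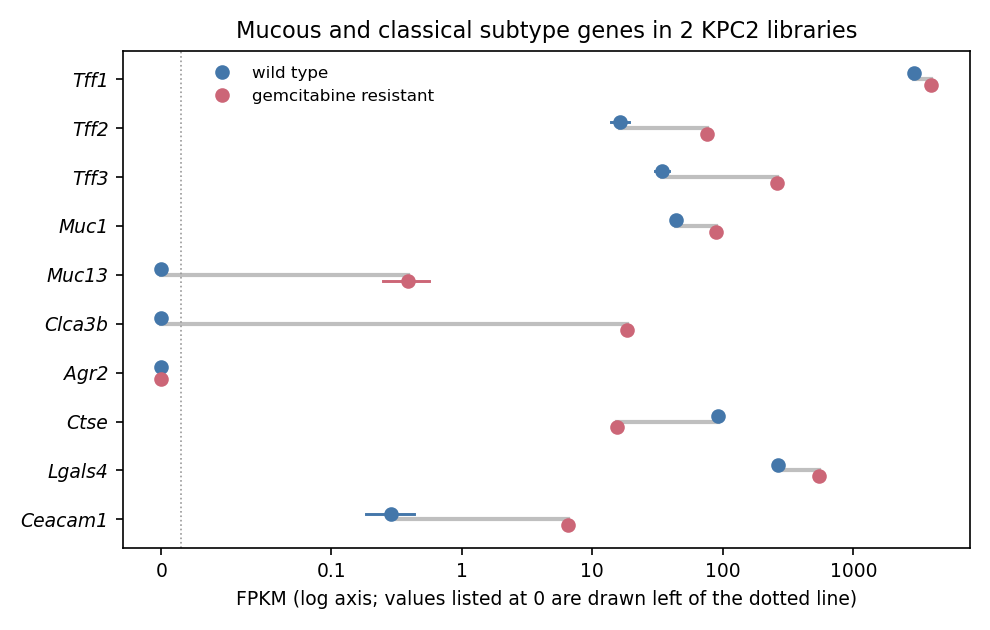
FPKM of the 10 members (rows) in the wild type library (blue) and the gemcitabine-resistant library (red), on a log axis with values listed at 0 drawn left of the dotted line; coloured bars are 95% counting intervals, narrower than the points for most genes. The red point lies right of the blue one for 8 genes and left of it for Ctse, and both Agr2 points are at 0.

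The most abundant member was Tff1, whose product is the trefoil peptide of gastric surface mucous cells. It stood at 2935 FPKM in wild type and 3923 FPKM in resistant cells. It was high in both libraries, holding rank 5 and rank 6 among 21884 nuclear protein-coding genes of the table. Rows marked as too deep or failed were not left out of the rankings given here. The ratio of the resistant to the wild type value was 1.34 (interval 1.32 to 1.35), a log2 ratio of 0.42, which is within 2-fold. An annotated antisense gene, Gm15318, overlaps Tff1 on the opposite strand and stood at 3.97 FPKM in the wild type against 0.224 FPKM in the resistant library. The table does not say whether strand was used in counting, so fragments of this pair could be shared.

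Tff2, the trefoil peptide of mucous neck and deep gland cells of the stomach, stood at 16.4 FPKM (interval 14.0 to 19.1) in wild type and 75.0 FPKM (interval 69.7 to 80.7) in resistant cells. The resistant library was the high one and the intervals did not overlap. The ratio was 4.58 (interval 3.87 to 5.46) and the log2 ratio 2.13. Tff3, the trefoil peptide best known from intestinal goblet cells, stood at 34.3 FPKM (interval 30.3 to 38.6) in wild type and 262 FPKM (interval 251 to 274) in resistant cells. It too was higher in the resistant library, 7.65-fold (interval 6.74 to 8.72), with a log2 ratio of 2.90. Its rank among protein-coding genes was 2144 in wild type and 262 in resistant cells.

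The make-up of the trefoil transcripts differed between the libraries, though Tff1 led in both. Summed FPKM of the 3 genes was 2986 in wild type and 4260 in resistant cells. Tff1 made up 98.3% of the wild type sum and 92.1% of the resistant sum. The share of Tff3 was 1.15% in wild type and 6.16% in resistant cells. That of Tff2 was smaller in both, 0.548% and 1.76%. Per unit of length, Tff1 was 85.5 times as abundant as Tff3 in wild type and 14.9 times in resistant cells. These levels rest on short transcripts, of 703, 584 and 493 bases for Tff1, Tff2 and Tff3. Fragment steps matched transcript length less 160 bases in wild type and 170 in resistant cells, a correction that weighs more on comparisons between these 3 genes than on comparisons between libraries.

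The genes of known trefoil partners and proposed receptors did not share one direction. Gkn2, whose product pairs with TFF1 in gastric mucus, was at least 2-fold higher, at 50.7 against 14.5 FPKM. Muc5ac, the gel-forming mucin packed with TFF1, was at least 2-fold lower, at 1.95 against 12.0 FPKM. Ackr3, a chemokine receptor proposed to bind TFF3, was lower as well, at 1.41 against 6.18 FPKM, while Cxcr4 stood at 0.0564 FPKM in wild type and was listed at 0 in resistant cells. Of the 9 genes of that list, 3 were measured, 1 at least 2-fold higher and 2 lower, beside 7.90% and 8.37% of all measured genes. Muc2, the intestinal mucin found with TFF3, was listed at 0 in both libraries.

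The mucin members were both membrane mucins. Muc1, a broadly expressed epithelial membrane mucin with a signalling tail, stood at 44.2 FPKM (interval 42.3 to 46.0) in wild type and 88.8 FPKM (interval 86.2 to 91.5) in resistant cells. The resistant library was high, with a ratio of 2.01 (interval 1.91 to 2.12). The log2 ratio of 0.99 leaves Muc1 just inside the 2-fold line, and a pseudocount of 0.1 in place of 1 puts it just past the line at 1.01. Muc13, a membrane mucin of the gastrointestinal tract, was listed at 0 in wild type and stood at 0.387 FPKM (interval 0.248 to 0.566) in resistant cells. This level, about 25 fragments, was below 1 FPKM and no fold is given against a gene listed at 0.

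Other mucin genes gave Muc1 no common direction. Of 19 mucin and mucin-like genes in the table, 6 were measured and 8 were listed at 0 in both libraries. Of the 6, 2 were at least 2-fold higher and 2 lower, beside 7.90% and 8.37% of all measured genes. With a pseudocount of 5 the number higher was 1. The median log2 ratio of the 6, Muc1 among them, was 0.83, that of the 5 without Muc1 was 0.66, and that of the 11 with any value above 0 was 0.29, beside 0.02 over all measured genes. Mucl3, a mucin-like glycoprotein gene, stood at 60.1 against 6.49 FPKM and the membrane mucin gene Muc4 at 3.39 against 0.0822 FPKM, both higher in the resistant library. Besides Muc5ac, the sialomucin gene Podxl was lower there, at 0.429 against 10.1 FPKM. Among 19 measured enzymes of mucin-type O-glycosylation, 2 were at least 2-fold higher and 2 lower, beside the same shares of all measured genes. Their median log2 ratio was -0.04. Galnt3, one of the transferases that start O-glycan chains, stood at 49.1 against 17.6 FPKM, and C1galt1c1, the chaperone gene of the enzyme that extends them, at 4.88 against 12.8 FPKM.

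Clca3b, a member of the calcium-activated chloride channel regulator family of secreted and membrane-shed proteins, was listed at 0 in wild type and stood at 18.3 FPKM (interval 17.4 to 19.3) in resistant cells. The difference is one of a gene listed at 0 against a gene at about 1363 fragments, where 1 fragment would be worth 0.0131 FPKM in the wild type. No fold is given for it. An annotated pseudogene within Clca3b, Gm16215, and an antisense gene overlapping Muc13, Gm15657, were listed at 0 in both libraries. None of the 7 other family members in the table reached 1 FPKM in either library. Clca1, the goblet cell member, stood at 0.310 FPKM in wild type and 0.111 FPKM in resistant cells. The nearest relatives in sequence were Clca3a1, 87.2% identical over 2707 aligned bases, and Clca3a2, with a stretch of at least 200 bases at 90% identity or more. Both were listed at 0 in the wild type, and they stood at 0.0128 and 0.0717 FPKM in the resistant library. The sources used here do not give how fragments that match more than 1 of these genes were split.

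Agr2, the protein disulfide isomerase family member that mucous cells need for mucin folding and a leading classical subtype marker, was listed at 0 in both libraries. Its relative Agr3 was listed at 0 in both as well. One fragment of Agr2 would be worth 0.067 FPKM in wild type and 0.0699 FPKM in resistant cells. Tff1 was thus among the most abundant transcripts in libraries where Agr2 was listed at 0. General disulfide isomerases of the secretory pathway were abundant: P4hb stood at 385 and 366 FPKM and Pdia3 at 222 and 180 FPKM in wild type and resistant cells. Of 11 measured genes of that list, Ero1l, the oxidase that recharges disulfide isomerases, was at least 2-fold higher, at 122 against 41.1 FPKM, and the remaining 10 were within 2-fold. The list's median log2 ratio was 0.00095.

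RefSeq promoter windows of GRCm38.p6, covering the 250 bases before each annotated start, were found for 6 members; Tff1, Tff2, Tff3 and Ctse had no entry. The windows of Clca3b and Muc13 are printed because both genes were listed at 0 in the wild type library alone, that of Muc1 as a gene present in both libraries, and that of Agr2 as a gene listed at 0 in both. Each runs 5′ to 3′ on the gene's own strand, Clca3b on the minus strand (chr3:144849358-144849552) and the others on the plus strand (Muc13 at chr16:33793787-33794036, Muc1 at chr3:89228806-89229055, Agr2 at chr12:35992675-35992906). Capitals mark matches to the motifs searched, and the last 55 bases of the Clca3b window and the last 18 bases of the Agr2 window are left off because GENCODE M21 places them inside the transcript.
Clca3b: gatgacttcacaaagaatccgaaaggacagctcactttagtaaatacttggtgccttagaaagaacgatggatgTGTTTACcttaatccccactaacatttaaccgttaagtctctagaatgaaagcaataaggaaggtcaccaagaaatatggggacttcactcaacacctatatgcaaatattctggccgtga
Muc13: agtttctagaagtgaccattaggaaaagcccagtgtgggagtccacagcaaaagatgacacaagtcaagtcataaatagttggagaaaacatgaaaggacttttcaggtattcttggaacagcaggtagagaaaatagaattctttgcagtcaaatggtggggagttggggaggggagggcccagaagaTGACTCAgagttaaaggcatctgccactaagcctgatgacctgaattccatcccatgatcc
Muc1: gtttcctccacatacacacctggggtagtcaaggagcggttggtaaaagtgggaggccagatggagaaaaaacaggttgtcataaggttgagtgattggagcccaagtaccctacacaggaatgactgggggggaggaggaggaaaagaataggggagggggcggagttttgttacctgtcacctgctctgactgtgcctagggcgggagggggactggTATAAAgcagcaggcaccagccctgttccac
Agr2: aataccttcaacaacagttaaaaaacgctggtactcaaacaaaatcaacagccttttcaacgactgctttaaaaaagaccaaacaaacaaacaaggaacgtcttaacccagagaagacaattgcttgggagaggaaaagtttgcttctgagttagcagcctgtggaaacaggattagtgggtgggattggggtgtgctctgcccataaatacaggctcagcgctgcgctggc

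The motifs were searched on both strands of all 32851 RefSeq windows of 250 bases. The AP-1 motif TGANTCA, present in 6.75% of windows, was found in those of Clca3b and Muc13. In Muc13 it starts 61 bases before the start in the window printed above, and the second RefSeq window of Muc13, at a start inside the gene, holds it as well, 179 bases before that start. In Clca3b the match, TGATTCA, starts 58 bases before the RefSeq start and reaches over the GENCODE start, so it is not in capitals above. The FOXA motif TGTTTAC, in 3.17% of windows, was found in Clca3b alone, 176 bases before the start. The TATA motif TATAAA, in 12.4% of windows, was found in Muc1 alone, 31 bases before the start. The GATA motif AGATAA (9.99% of windows), the ATF4-CHOP composite element core TGATGNAA (3.45%) and the ETS motif GGAAGT (19.7%) were in no member's window, and the windows of Agr2, Ceacam1 and Lgals4 held none of the 6. Base composition varied among them: 41.6% G and C in Clca3b, 44.4% in Agr2, 54.8% in Muc1 and 58.8% in Ceacam1, against a median of 52.4% over all windows. A match describes letters in the window and no binding was measured here.

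Ctse, which encodes cathepsin E, an aspartic protease of gastric epithelium that is also known from pancreatic neoplasia, was the member with the opposite direction. It stood at 92.4 FPKM (interval 89.7 to 95.2) in wild type and 15.4 FPKM (interval 14.2 to 16.5) in resistant cells. The wild type library was the high one, 6.02-fold, and the log2 ratio was -2.51. Its rank among protein-coding genes was 716 in wild type and 4448 in resistant cells. Of the 11 measured aspartic and cathepsin protease genes, the other 10 had a median log2 ratio of 0.25. The lysosomal aspartic protease gene Ctsd stood at 125 and 144 FPKM in wild type and resistant cells, and the cysteine protease gene Ctsl at 87.4 and 144 FPKM. Bace2, an aspartic protease gene of the membrane, was the other one at least 2-fold lower, at 1.14 against 4.39 FPKM. Pgc and Pga5, the gastric pepsinogen genes, were listed at 0 in both libraries.

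Lgals4, which encodes galectin-4, a galactoside-binding lectin of the digestive tract, stood at 264 FPKM (interval 258 to 270) in wild type and 548 FPKM (interval 539 to 557) in resistant cells. The resistant library was high, with a ratio of 2.08 (interval 2.02 to 2.13) and a log2 ratio of 1.05. Rescaling the resistant library to the same upper quartile as the wild type brings Lgals4 inside the 2-fold line, at 0.96, and no galectin gene is then past it. Among protein-coding genes its rank was 227 in wild type and 124 in resistant cells. Of the 7 measured galectin genes, Lgals4 and the galectin-related gene Lgalsl, at 43.2 against 20.4 FPKM, were at least 2-fold higher and none was lower. The 3 most abundant galectins were closer between the libraries: Lgals2 stood at 1987 and 2503 FPKM, Lgals1 at 1088 and 1071 FPKM, and Lgals3 at 617 and 646 FPKM in wild type and resistant cells. Lgals6, a near copy of Lgals4 in some mouse strains, was looked for but had no entry among the deposited gene symbols.

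Ceacam1, an immunoglobulin-family adhesion receptor of epithelia and leukocytes, stood at 0.289 FPKM (interval 0.184 to 0.427) in wild type and 6.57 FPKM (interval 6.03 to 7.15) in resistant cells. It was low in the wild type, at about 24 fragments, and higher in the resistant library, at about 534. The FPKM ratio was 22.8 (interval 15.2 to 36.1), while the log2 ratio of 2.55 is smaller because 1 FPKM is added to both values. The 14 other Ceacam genes in the table were below 1 FPKM in both libraries. Ceacam2, 90.3% identical to Ceacam1 over 2901 aligned bases, was listed at 0 in wild type and stood at 0.0706 FPKM in resistant cells, so the split between this pair is uncertain. Ceacam1 also lies inside the span of an antisense gene, 4732471J01Rik, which stood at 0.452 FPKM in wild type and 0.200 FPKM in resistant cells. Among 10 genes for mucin shedding and CEACAM1 partners, Egfr was at least 2-fold higher, at 8.12 against 0.935 FPKM, and Erbb2, which forms complexes with MUC1, was lower, at 4.82 against 13.1 FPKM. Adam10 and Adam17, the sheddases, lay within 2-fold.

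The log2 ratio of Clca3b stood at percentile 99.7 of the 12193 measured genes, those of Tff3, Ceacam1 and Tff2 at 99.3, 99.0 and 98.5. Lgals4 and Muc1 came at percentile 93.0 and 91.9, Tff1 at 73.7 and Ctse at 0.533. The median log2 ratio of all 10 members, the unmeasured Muc13 and Agr2 among them, was 1.02, beside 0.02 over all measured genes. As the members were chosen on this contrast, nothing is read from these percentiles or from this median. Their summed FPKM was 3387 in wild type and 4937 in resistant cells, a sum dominated by Tff1. Without Tff1 it was 451 and 1015 FPKM.

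**Figure D2:**
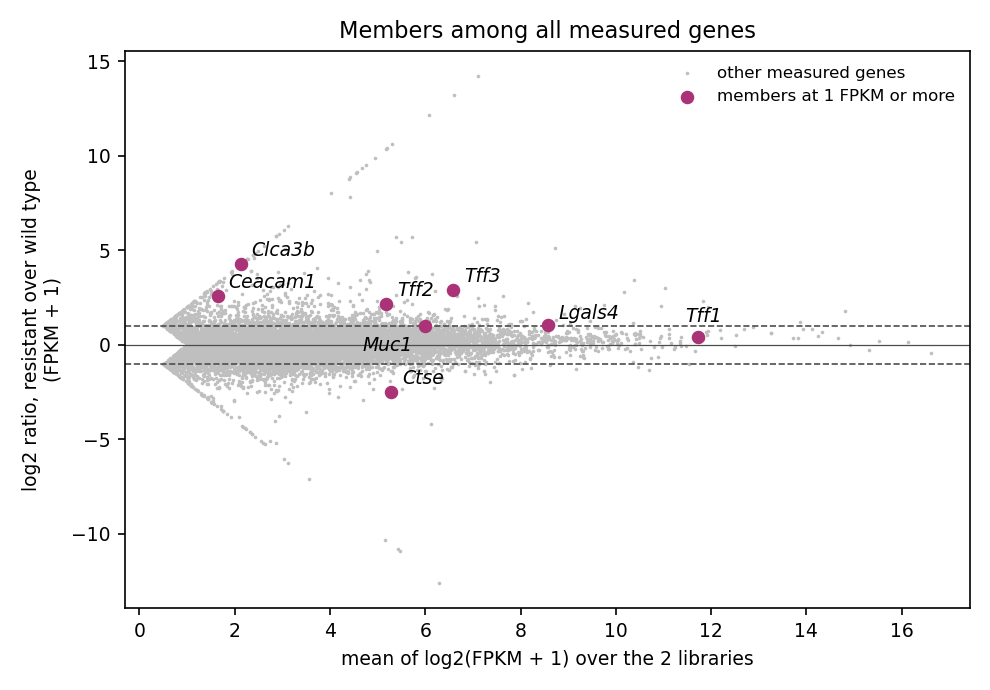
Log2 ratio (vertical axis, resistant over wild type on FPKM + 1) against the mean of log2(FPKM + 1) over both libraries (horizontal axis) for every measured gene in grey and the 8 measured members in purple; dashed lines mark 2-fold. Tff2, Tff3, Clca3b and Ceacam1 lie well above the upper line, Lgals4 and Muc1 close to it, Tff1 near 0 at the high end of expression, and Ctse below the lower line.

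The authors' deposited table carries a test of 1 library against the other for 8 members, and Clca3b was the single one it called. Over all genes, 0.404% of those tested were called there, 56 of 13850. The authors' deposited table gave Clca3b a p-value of 5e-05 and a q-value of 0.0169. For Ctse the authors' deposited table gave a p-value of 0.0003 and a q-value of 0.066, and for Tff3 0.00125 and 0.162. The q-value in the authors' deposited table was 0.525 for Ceacam1 and 0.998 for Tff1, Tff2, Muc1 and Lgals4. Agr2 and Muc13 were not tested in the authors' deposited table. A test of 1 library per side compares these libraries, not the conditions.

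Members shared their direction with part of the wider marker lists only. Among 19 measured classical subtype markers, 5 were at least 2-fold higher and 3 lower, but 6 of the 19 were members. Without them, Spink4 was the 1 higher gene of 13, at 2.26 against 0.178 FPKM, Fxyd3 and Foxq1 were lower, and the median log2 ratio was 0.14. Other abundant classical markers lay within 2-fold, as Tff1 did: Tspan8 stood at 328 and 361 FPKM, Gprc5a at 113 and 207 FPKM and Cdh17 at 92.8 and 169 FPKM in wild type and resistant cells. Of 12 measured gastric pit and neck mucous cell genes, 4 were at least 2-fold higher (Tff2, Gkn1, Gkn2 and Mucl3) and 5 lower (Ctse, Muc5ac, Vsig1, Aqp5 and Onecut2). Tff2 and Ctse thus lay on opposite sides within 1 list. Without the 3 members in it, 3 of 9 measured genes of this gastric list were at least 2-fold higher and 4 lower. Their median log2 ratio was -0.07. Tff3 and Bcas1 were among the 4 of 6 measured goblet cell genes past 2-fold upward, Bcas1 at 13.9 against 1.91 FPKM, and 2 genes were past it with a pseudocount of 5. Tff3 was chosen as a member because it had been seen high, and without it 3 of 5 were past 2-fold upward. Beside the 6 measured, the other 12 goblet cell genes in the table were under 1 FPKM in both libraries. Of these, Muc2, Zg16, Retnlb, Spdef and Atoh1 were listed at 0 in both, as was Agr2.

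**Figure D3:**
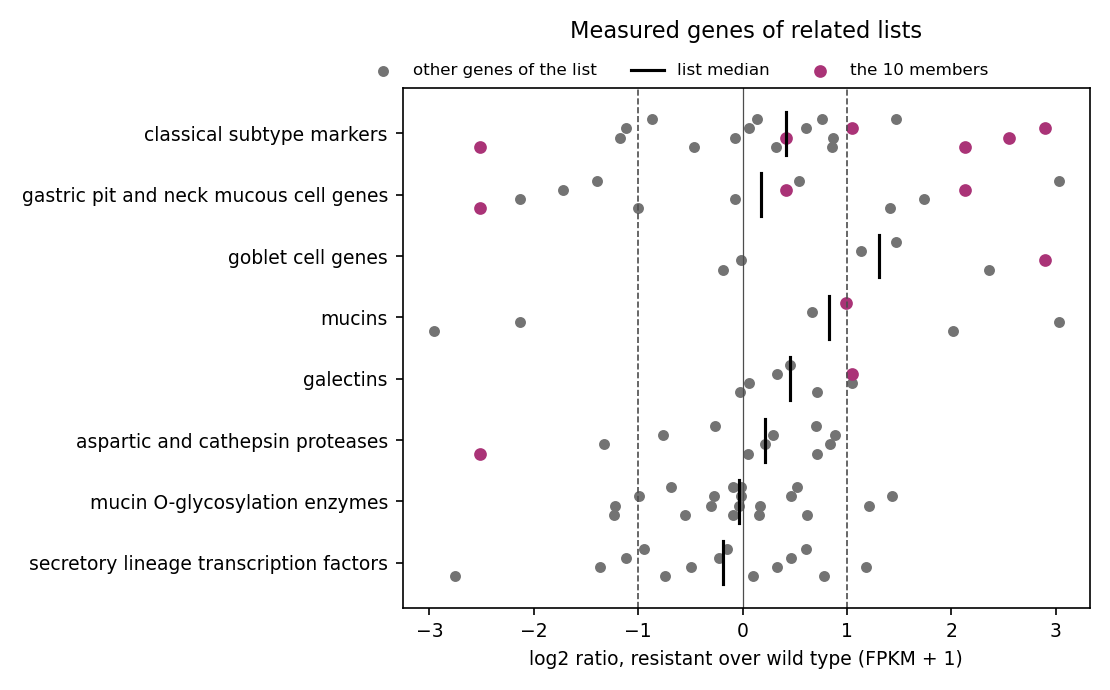
Log2 ratio (horizontal axis, resistant over wild type on FPKM + 1) of the measured genes of 8 lists (rows), with the members in purple, other genes in grey and black bars at list medians; dashed lines mark 2-fold. Members hold the highest ratios of the classical subtype and goblet cell rows, and Ctse holds the lowest ratio of the classical subtype, gastric and protease rows.

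Markers of other cell types were mostly under 1 FPKM. Ductal keratin genes were abundant in both libraries, with Krt19 at 1332 and 1738 FPKM and Krt8 at 1176 and 1722 FPKM in wild type and resistant cells, but the epithelial marker Epcam and the duct channel gene Cftr were below 1 FPKM in both. No islet marker, fibroblast marker or endothelial marker reached 1 FPKM, and 1 of 13 acinar markers (Cela1, at 1.48 against 4.38 FPKM) and 2 of 8 tuft cell markers (Avil, at 13.5 against 10.9 FPKM, and Alox5ap, at 1.42 FPKM and listed at 0 in wild type) did. Summed over 13 leukocyte markers, FPKM was 1.73 in wild type and 7.27 in resistant cells. Of the 13, 2 reached 1 FPKM. Cd68, at 5.48 against 1.17 FPKM, was at least 2-fold higher, and Lyz2, at 1.53 against 0.361 FPKM, lay within 2-fold on the log2 ratio. The defining gene Ptprc was listed at 0 in wild type and stood at 0.232 FPKM in resistant cells. Ceacam1 is also a leukocyte gene, and the part of leukocyte markers in its difference was not tested.

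On the chromosome, the trefoil genes lie side by side on the minus strand of chromosome 17 of GRCm38, Tff3 at 31125306 to 31129646, Tff2 at 31141049 to 31144282 and Tff1 at 31161395 to 31165277. The gap between Tff3 and Tff2 was 11.4 kb and that between Tff2 and Tff1 17.1 kb. The protein-coding genes directly outside the cluster, Abcg1 and Tmprss3, were below 1 FPKM in both libraries. The nearest measured gene beyond Tff1 was Slc37a1, 121.5 kb away, at 12.1 against 5.40 FPKM, a log2 ratio of 1.03. On the other side of Tff3, Glo1 stood at 44.6 and 57.0 FPKM in wild type and resistant cells.

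Clca3b lies at 144822623 to 144849357 on chromosome 3, minus strand, within a row of Clca genes. The 4 Clca genes shown beside it did not exceed 0.258 FPKM in either library, and Sh3glb1, at the edge of the row, stood at 174 and 180 FPKM in wild type and resistant cells. Among the 3 nearest measured genes on each side of Clca3b, Ccn1 was the 1 at least 2-fold higher, 797.6 kb away, at 177 against 4.64 FPKM. Ctse lies at 131638306 to 131675505 on chromosome 1, plus strand. Its nearest measured neighbour Rab7b, 13.2 kb away, was at least 2-fold lower as Ctse was, at 0.582 against 2.51 FPKM, and so was Slc26a9, 68.5 kb away, at 0.197 against 1.97 FPKM. On the other side Fam72a, 98.4 kb away, stood at 1.08 against 2.11 FPKM, lower but within 2-fold on the log2 ratio. Beyond it Srgap2, 111 kb away, was higher in the resistant library, at 23.2 against 9.13 FPKM. The 6 neighbours of Ctse had a median log2 ratio of -0.10.

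**Figure D4:**
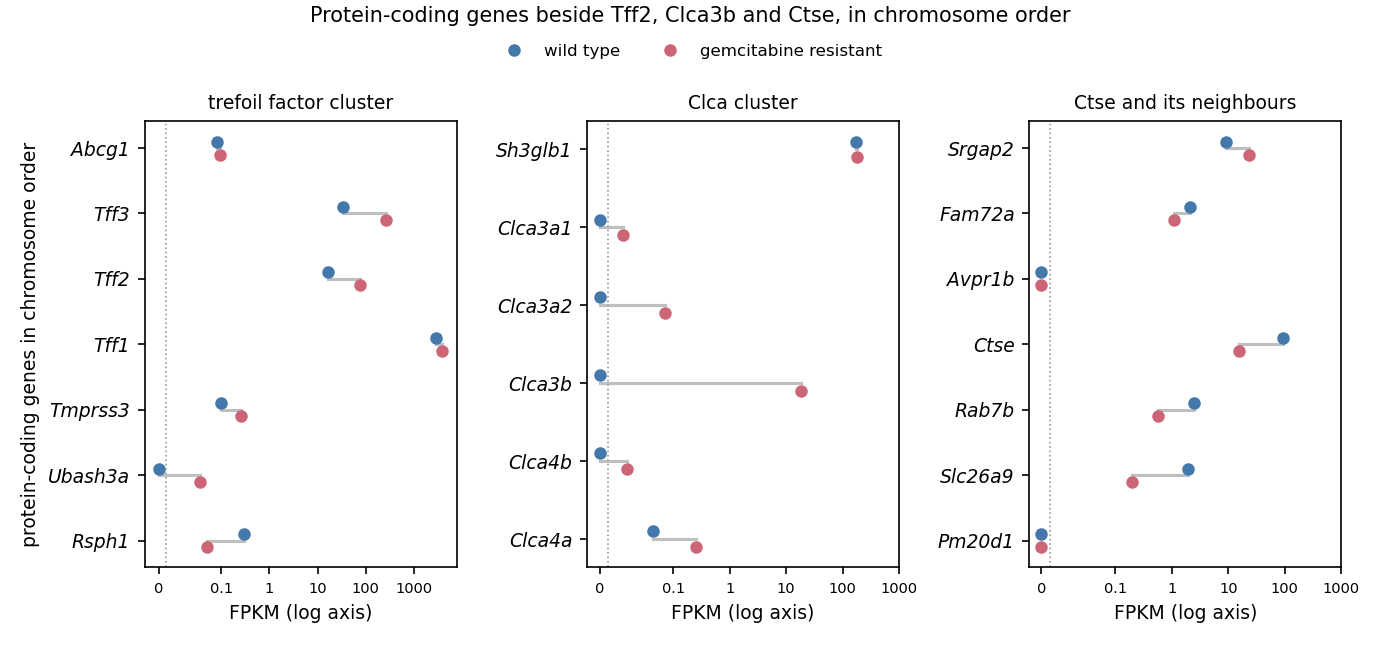
FPKM (log axis, values listed at 0 left of the dotted line) of protein-coding genes in chromosome order around Tff2, Clca3b and Ctse, in the wild type (blue) and the resistant library (red). In the left panel the 3 trefoil genes stand above neighbours that are all below 1 FPKM, in the middle panel Clca3b in the resistant library stands above the other Clca genes, and in the right panel Rab7b and Slc26a9 lie lower in the resistant library as Ctse does.

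The remaining members lie apart from one another. Muc1 is on chromosome 3 at 89229057 to 89233381 (plus strand), Muc13 on chromosome 16 at 33794037 to 33819934 (plus strand), Agr2 on chromosome 12 at 35992907 to 36004087 (plus strand), and Lgals4 and Ceacam1 on chromosome 7 at 28833854 to 28841708 (plus strand) and 25461707 to 25477603 (minus strand). Of the 6 nearest measured genes of each, none was at least 2-fold higher or lower beside Muc1, Muc13, Lgals4 or Ceacam1. Over all measured genes the shares were 7.90% higher and 8.37% lower, so nothing is read from their absence among so few neighbours. The medians of the neighbours of Muc1, Muc13, Lgals4 and Ceacam1 were 0.20, -0.25, 0.42 and 0.10 on the log2 scale. Beside Agr2, which was listed at 0, the tetraspanin gene Tspan13 was the 1 of 6 at least 2-fold higher, 10.5 kb away, at 15.6 against 4.66 FPKM. The median log2 ratio of the 6 neighbours of Agr2 was 0.15.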

How the data were processed

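RNA of 1 wild type and 1 gemcitabine-resistant KPC2 library was measured. The submitters' processing notes name HISAT2, StringTie and GRCm38, without versions or roles. The deposited table gives 1 value per gene and library; its header names no unit, and the authors' values were read as FPKM, being fractional and on steps that scale with transcript length. Per the file headers, the same table holds the authors' own log2 fold change (no pseudocount added), p-value and q-value.

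Members and gene lists were chosen with earlier results of these data known. Values of rows with the same symbol were added up, leaving out 13 rows marked in the table as too deep or failed. Log2 ratios use a pseudocount of 1, which understates differences of low genes. No test between groups was computed. Fragment numbers behind the 95% intervals came from whole-fragment steps: 92.95% of 1632 low values in the wild type and 93.81% of 1680 in the resistant library lay within 0.1 of a whole number, up to 5.5 fragments, after 160 or 170 bases were taken off the transcript length. No fold is given against a value listed at 0, since the table gives no counts.

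Named genes are all members and a choice of list genes past 2-fold (up to 4 per direction). Up to 4 abundant others per list were added, and some of the 3 nearest measured protein-coding genes on each side of a member. List genes past 2-fold that are not named above include Krt7, Sox9, Galnt4, St6galnac4 and Fer1l6. Unmeasured defining genes of a list and relatives in sequence were added after their values were seen. Positions are from GENCODE M21 (GRCm38), promoter windows from RefSeq, and near-identical transcripts from BLAST 2.17.0+. The alternatives were rescaling to the median or the upper quartile, pseudocounts of 0.1 and 5, a level filter of 5 FPKM or none, 1 row per symbol, protein-coding genes only, a 4-fold threshold, and 5 neighbours on each side. The steps were checked on simulated data. Versions were scipy 1.17.1, pandas 2.3.3, matplotlib 3.10.9 and numpy 2.4.6 under Python 3.11.15.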

Additional observations from a re-analysis of the deposited data

How the results depend on the processing

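No paired analysis was possible because each group has 1 library, and for the same reason no replicate could be left out. A pseudocount cannot turn the sign of a log2 ratio, nor can rescaling for Clca3b and Muc13, listed at 0 in the wild type. The number at least 2-fold higher was 5, but 6 with a pseudocount of 0.1 (Muc1 joined), 4 after upper quartile rescaling (Lgals4 left) and 4 at a 4-fold threshold; the number lower, Ctse, was 1 throughout. The log2 ratio of Ceacam1 was 4.10 with a pseudocount of 0.1 and 1.13 with a pseudocount of 5. The 2-fold counts over the whole table were 963 up and 1021 down. A pseudocount of 0.1 gave 1315 up and 1553 down, upper quartile rescaling 818 up and 1183 down, and a pseudocount of 5 gave 428 up and 297 down. At a 4-fold threshold 220 were up and 128 down. The gastric list's median of 0.17 was -0.07 with a filter of 5 FPKM and -0.01 with no filter, the mucin list's median of 0.83 was 0.29 with no filter, and the goblet list's median of 1.30 was 0.0020 with no filter, over genes with any value above 0. The goblet count of 4 higher was 2 with a pseudocount of 5 and 3 with a filter of 5 FPKM, and the mucin count of 2 higher was 1 with either. With 5 neighbours on each side the median beside Ctse was 0.12. Depth limits Muc13 (about 25 fragments in the resistant library) and Ceacam1 (about 24 in the wild type). Without replicate libraries, no value here shows how far 2 cultures of the same cells would differ.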

Other observations

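Transcription factor genes known from mucous and gastrointestinal lineages did not move as one group beside the members. Of 14 measured, 1 was at least 2-fold higher in the resistant library and 3 were lower, beside 7.90% and 8.37% of all measured genes. The median log2 ratio was -0.18. Gata5, a factor of gut endoderm, stood at 2.18 against 20.5 FPKM, Klf4, a factor of differentiating surface epithelium, at 20.1 against 53.4 FPKM, and Foxq1, a factor known to control Muc5ac in gastric surface cells, at 6.56 against 15.4 FPKM. The higher one was Cdx2, the intestinal homeobox gene, at 7.73 against 2.84 FPKM. Spdef and Atoh1, which are also on the goblet cell list, were listed at 0 in both libraries, and Foxa2, Gata4 and Hnf4a lay within 2-fold.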
